A study of Homo sapiens with 6 samples.

Results

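The 9 genes described here encode ligands of the tumour necrosis factor (TNF) superfamily: TNF, LTB, LTA, TNFSF9, TNFSF10, TNFSF12, TNFSF13, TNFSF14 and TNFSF15. They were picked by symbol, with earlier results of the same contrast known, from 16390 genes listed in each of 6 RNA-seq libraries of SW780, an established human bladder cancer cell line that the study counts among luminal cells. There were 3 Control libraries and 3 libraries of SW780 cells exposed to RC48 (disitamab vedotin), an antibody against ERBB2 that carries the microtubule poison monomethyl auristatin E. The dose was 25 µg/ml, the length of exposure was not named, and both groups came from the same parental line with no other treatment named. Of the 9 ligands, 8 were listed, and LTA was not listed and counts as not detected. Nothing says that the replicates were separate cultures, so their spread may be technical.

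Ligands of this family are trimeric membrane proteins, many of which are cut from the cell surface to act as soluble cytokines. Their receptors either carry a death domain, through which they can trigger apoptosis, or recruit TRAF adaptors that activate the canonical and alternative NF-κB pathways. TNF and the lymphotoxins LTA and LTB are known mainly from immune cells. LTB holds LTA at the cell surface in a mixed trimer that signals through the lymphotoxin β receptor, while TNFSF10 (TRAIL) is made by many epithelia and binds death receptors.

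The libraries held 16453233 to 17988030 estimated counts each. Values below are CPM (counts scaled to the library size), or TPM where levels of different genes are compared, since TPM is per transcript length. RC48 libraries differed from each other in a way that followed GC content. Over 13000 genes, the log2 ratio to the Control mean followed transcript GC content with a Spearman's rho of 0.74 in RC48 replicate 1, of 0.57 in replicate 3 and of -0.010 in replicate 2. A fit that corrects for GC is therefore given beside each ligand that it bears on. Levels of epithelial markers ranged from KRT19 at 41310 to 59498 counts to UPK2 at 232 to 583 and KRT20 at 8 to 35. The leukocyte marker PTPRC (CD45) was at 0 or 1 count in every library. Of the 5 tested leukocyte markers none passed the test, nor did any of 3 fibroblast or 3 endothelial markers. With the GC correction, however, COL3A1 was called higher and LUM lower. Of 10 epithelial markers 1, KRT20, was called lower (log2 fold change -1.55, adjusted p = 0.0489, edgeR quasi-likelihood test). Over all tested genes, 2.21% passed in either direction. EPCAM and FOXA1 were not called but, like KRT20, had every RC48 library below every Control library. Among all tested genes, 31.5% showed no overlap between the groups in either direction. The summed CPM of the leukocyte list was 18.4 to 19.1 in Control and 20.5 to 39.4 after RC48, and its part in the ligand values was not tested. Of that list, CD68 was at 287 to 291 counts in Control and 307 to 562 after RC48. CD3E was at 4 to 7 and 11 to 23, and CD14 at 4 to 8 and 12 to 23. These markers showed no overlap between the groups, with RC48 higher, an order found in 17.4% of all tested genes. The other tested markers overlapped, with CD3D at 9 to 12 and 10 to 16, and LYZ at 6.8 to 10.13 and 5.9 to 13.4. The mesenchymal genes LUM and COL3A1 were not absent, at 1118 counts or more in each library.

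TNF, LTA and LTB lie side by side in the major histocompatibility complex on chromosome 6. The bases before their start sites are shown for the 2 ligands that went from at most 1 count to 38 or more, LTB and TNF, since these genes are neighbours that moved together. Each is the 250 bases that end just before the RefSeq start, 5′ to 3′ on the coding strand, in the GRCh38.p14 build. Capitals mark a match to the NF-κB consensus. LTB is on the minus strand (chr6:31582426-31582675) and TNF on the plus strand (chr6:31575315-31575564).
LTB: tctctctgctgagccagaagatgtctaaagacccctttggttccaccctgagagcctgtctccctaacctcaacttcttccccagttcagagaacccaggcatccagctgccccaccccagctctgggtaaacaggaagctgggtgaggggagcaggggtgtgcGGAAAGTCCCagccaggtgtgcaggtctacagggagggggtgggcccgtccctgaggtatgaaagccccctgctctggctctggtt
TNF: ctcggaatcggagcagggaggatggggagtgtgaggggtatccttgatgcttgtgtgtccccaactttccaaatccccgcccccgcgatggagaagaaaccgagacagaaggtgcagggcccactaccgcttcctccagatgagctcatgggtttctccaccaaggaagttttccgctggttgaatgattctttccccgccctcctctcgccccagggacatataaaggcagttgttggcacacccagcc
The LTB match lay 86 bases before the start, read on the opposite strand. No match to the NF-κB consensus was found in the 250 bases of TNF.

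Shorter windows of 60 bases are shown for 4 further ligands around their matches to NF-κB, AP-1 (TGANTCA) or an interferon-response repeat (GAAA and GAAA with 2 bases between), again in capitals. The TNFSF15 window (chr9:114792618-114792677, minus strand) lies inside an intron of a longer annotated transcript of the gene. The TNFSF13 window (chr17:7558116-7558175, plus strand) precedes the second of 2 RefSeq starts and lies in an intron of the TNFSF12-TNFSF13 readthrough transcript. TNFSF9 is on the plus strand (chr19:6530807-6530866) and TNFSF10 on the minus strand (chr3:172523583-172523642).
TNFSF15, AP-1: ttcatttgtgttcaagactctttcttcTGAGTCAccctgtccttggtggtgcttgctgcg
TNFSF13, NF-κB: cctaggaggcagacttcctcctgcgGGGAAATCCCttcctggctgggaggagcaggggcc
TNFSF9, interferon-response repeat: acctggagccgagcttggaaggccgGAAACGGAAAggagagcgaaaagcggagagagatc
TNFSF10, interferon-response repeat: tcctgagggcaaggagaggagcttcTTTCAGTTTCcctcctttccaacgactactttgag
Both strands were searched in the 250 bases before each of 35116 RefSeq starts, of which 9.96% held the NF-κB consensus, 6.57% AP-1 and 3.02% the interferon-response repeat. These shares are for 250 bases, not for the 60 bases printed. A start table entry was found for 8 of the 9 ligands, and none for TNFSF12. The outermost annotated 5′ ends of TNFSF15, TNFSF14 and LTA were not among the starts searched. LTA, which was not detected, held overlapping NF-κB matches 104 and 103 bases before its second start. TNFSF14 held NF-κB and AP-1 matches 192 and 166 bases before its first start, and did so in front of a gene with at most 5 counts in a library. A match describes the letters and does not show that a factor binds, nor does a missing match show that none binds.

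**Figure D1:**
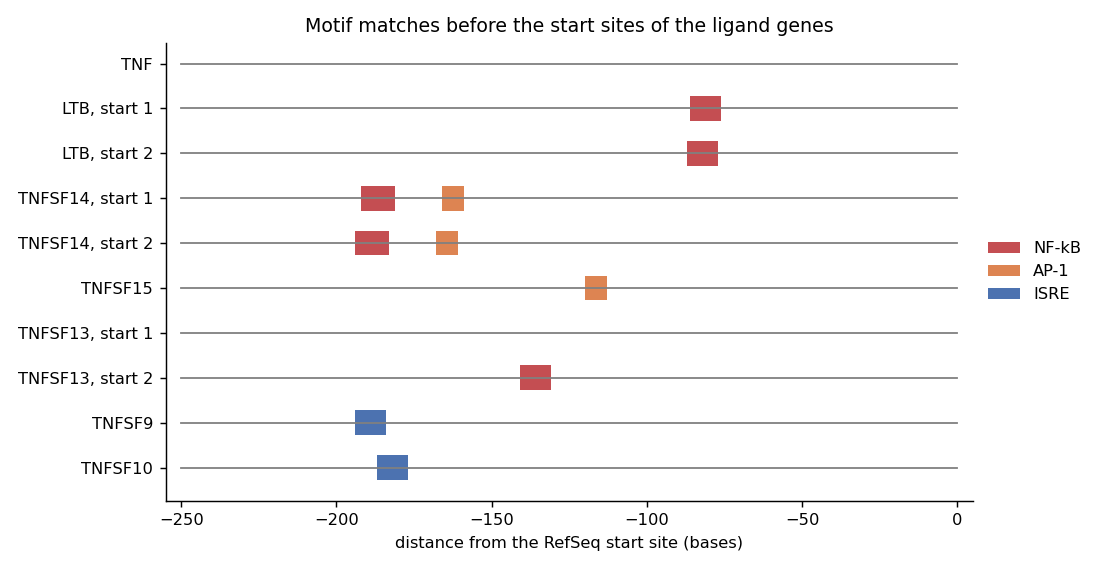
Motif matches in the 250 bases before each RefSeq start searched, for the listed ligand genes other than TNFSF12, by distance from the start in bases. The starts of TNFSF15 and TNFSF14 lie inside the gene, and their outermost 5′ ends were not searched. Red boxes are matches to the NF-κB consensus, orange to AP-1 and blue to the interferon-response repeat on either strand, overlapping matches drawn over each other. The line of TNF and that of the first TNFSF13 start carry no box.

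LTB, the membrane anchor of the lymphotoxin heterotrimer, went from no read to 180 or more. Its counts were 0, 0 and 0 in the Control libraries and 180, 185 and 235 after RC48, which is 10.9, 10.6 and 13.1 CPM. Against a floor of 3 counts over the Control group, the summed level after RC48 was at least 198-fold higher. The exact 95% lower limit of the ratio was 161, for counting error only. On the TPM scale LTB reached 26.3, 31.4 and 37.5, so that the ligand that was listed at 0 in Control became the second most abundant of the family. The 3 RC48 libraries differed among themselves by far less than they did from Control, and RC48 replicate 3 was the highest.

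TNF, the founding cytokine of the family, had counts of 0, 0 and 1 in Control and of 53, 51 and 38 after RC48. These counts are 3.22, 2.91 and 2.12 CPM after RC48. The ratio of the summed counts, scaled to library size, was 141 with an exact 95% interval of 24.9 to 5604 that covers counting error only. The groups did not overlap, and RC48 replicate 3, where LTB was highest, had the lowest TNF. In TPM, TNF was at 3.53, 3.77 and 2.56 after RC48, well under LTB in each library. The GC content of the transcripts was 54.3% for TNF and 63.8% for LTB, against a median of 49.9% over the tested genes. The GC-corrected fit called both higher, but both passed its filter only through their RC48 counts, so nothing is read from this.

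TNFSF14 (LIGHT), a ligand of the lymphotoxin β receptor and of HVEM, stayed near the detection limit. It had 0, 1 and 0 counts in Control and 4, 3 and 5 after RC48. The scaled ratio of the sums was 11.9 with an exact 95% interval of 1.76 to 509 that covers counting error only. TNFSF14 was too low to enter the test. LTA, the partner of LTB, was not listed in any library.

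**Figure D2:**
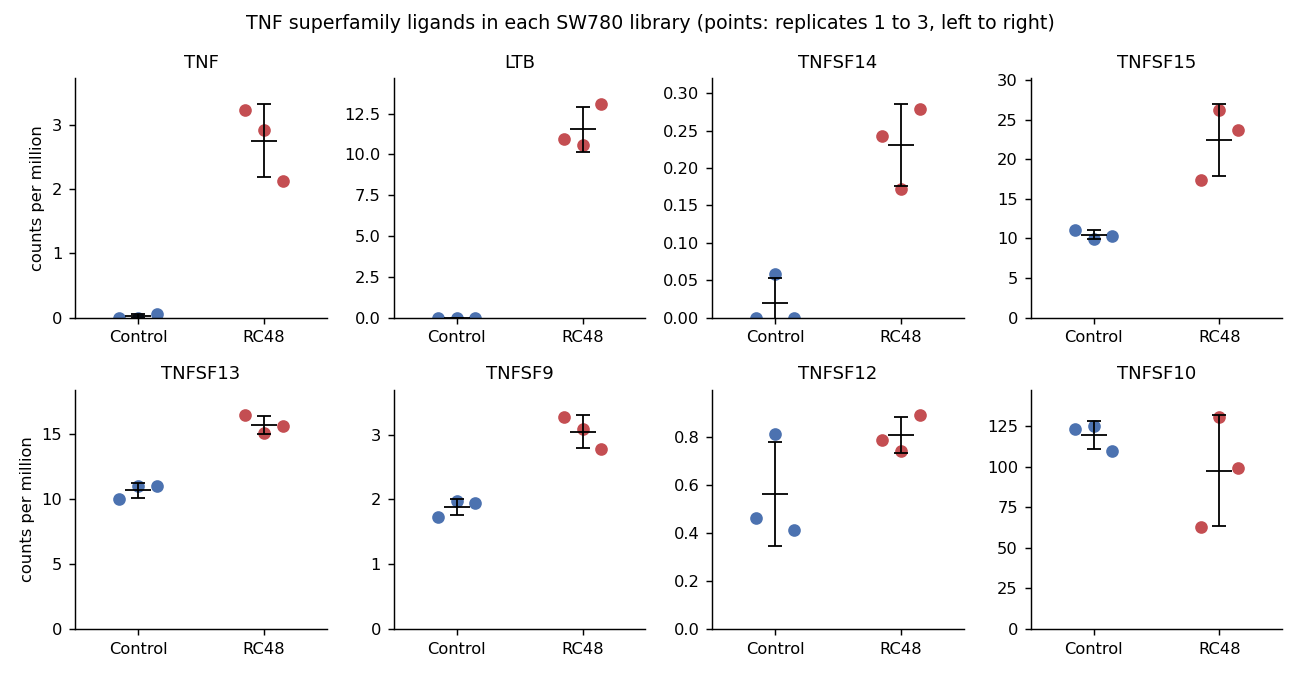
CPM of the 8 listed ligands in each library, on linear axes that start at 0. Points are replicates 1 to 3 from left to right in each group, and the black bar is the mean with its SD (n = 3). TNF, LTB, TNFSF14, TNFSF15, TNFSF13 and TNFSF9 show no overlap between groups, with RC48 higher, while TNFSF12 and TNFSF10 overlap. That order was found in 17.4% of all tested genes. TNF and LTB passed the filter only through their RC48 counts, and TNFSF14 was too low to be tested, so nothing is read from it.

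TNFSF15 (TL1A), which signals through the death receptor TNFRSF25, was expressed in Control cells and was higher after RC48. Its values were 11.04, 9.91 and 10.4 CPM in Control and 17.4, 26.2 and 23.7 CPM after RC48. The log2 fold change was 1.10 ± 0.18 (SE, n = 3 per group), a 2.15-fold difference. RC48 replicate 1 was the lowest of its group at 1.66 times the Control mean, and replicates 2 and 3 stood at 2.51 and 2.27 times. TNFSF15 has a GC-poor transcript (42.4%), and with the GC correction its log2 fold change was 1.35. The fits without Control replicate 1, 2 or 3, or without RC48 replicate 3, no longer called it, at log2 fold changes of 1.04 to 1.14.

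TNFSF13 (APRIL), a survival factor for B cells and plasma cells, stood at 9.95, 11.01 and 10.95 CPM in Control and at 16.4, 15.02 and 15.6 CPM after RC48. Each RC48 library was above each Control library, at 1.41 to 1.54 times the Control mean. The log2 fold change of 0.56 ± 0.13 (SE) did not reach the call threshold, and it was 0.30 with the GC correction. TNFSF9 (4-1BBL), a costimulatory ligand for T cells, had counts of 30, 34 and 33 in Control and of 54, 54 and 50 after RC48. Its groups did not overlap either, at 1.73 to 1.97 CPM against 2.78 to 3.28 CPM. The log2 fold change of TNFSF9 was 0.69 ± 0.19 (SE), was 0.44 with the GC correction, and was not called.

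TNFSF12 (TWEAK), the ligand of the receptor TNFRSF12A, was low in all libraries. Its estimated counts were 8, 14 and 6.91 in Control and 13, 12.85 and 16 after RC48, and the groups overlapped because of Control replicate 2. The log2 fold change was 0.52 ± 0.34 (SE), 0.20 with the GC correction, 0.87 without Control replicate 2 and 0.34 without Control replicate 3. Reads of TNFSF12 and TNFSF13 can be shared with their readthrough gene TNFSF12-TNFSF13, to which at most 0.49 estimated counts were given in a library, so both ligands are uncertain.

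TNFSF10 (TRAIL), which induces apoptosis through death receptors, was the most abundant ligand and the only listed one with a lower mean after RC48. It was at 123, 125 and 110 CPM in Control, and at 62.9, 131 and 98.9 CPM after RC48. RC48 replicate 1 had 0.526 times the Control mean while replicate 2 had 1.10 times, so the RC48 libraries lay on both sides of Control. The log2 fold change of -0.29 ± 0.24 (SE) was not called. Without RC48 replicate 1 it was -0.06, without RC48 replicate 2 it was -0.56, and with the GC correction it was -0.12. The GC content of TNFSF10 was 43.6%, below the lower quartile of the tested genes at 44.0%, and RC48 replicate 1 was the library with the strongest GC trend.

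**Figure D3:**
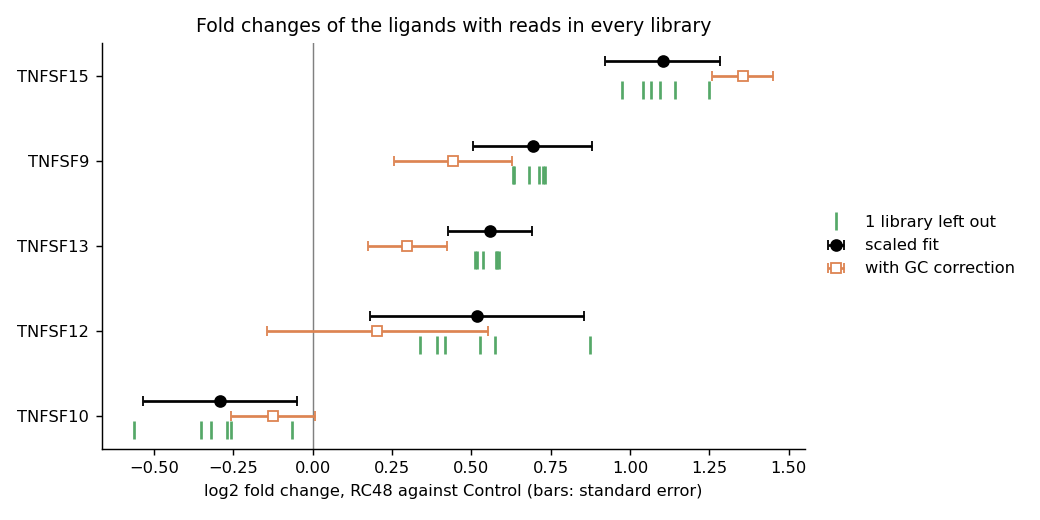
Log2 fold changes, RC48 against Control, of the 5 ligands with reads in every library. Black points are the scaled fit and open orange squares the fit with GC correction, both with standard errors, and green ticks are the fits that leave out 1 library. TNFSF15 lies right of 0.97 in all of them, while the ticks of TNFSF10 run from -0.56 to -0.06.

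Across the family, 7 of the 9 ligands had enough reads to be tested, and 3 of them, LTB, TNF and TNFSF15, were called higher and none lower. The same fit called 2.21% of all 13055 tested genes in either direction and 1.98% higher. The ligands were chosen with this contrast known, so nothing is read from their count. The median log2 fold change of the 7 tested ligands was 0.69, that of all tested genes was 0.02. In 5 of the 7 tested ligands every RC48 library was above every Control library, an order found in 17.4% of all tested genes. LTB and TNF passed the filter only through their RC48 counts, so their rise and this order were fixed on entry. Nothing is therefore read from the median or the order either. A change in the number of cells that make a ligand and a change in its RNA per cell cannot be told apart in such bulk libraries.

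The make-up of the ligand transcripts differed between the groups. In Control, the order of levels was TNFSF10 at 134.5 ± 2.4 TPM (SD, n = 3), TNFSF13 at 11.1 ± 0.72 TPM, TNFSF15 at 2.96 ± 0.21 TPM, TNFSF9 at 2.51 ± 0.26 TPM and TNFSF12 at 0.92 ± 0.33 TPM. The ranges of TNFSF15 and TNFSF9 overlapped, and those of TNF, TNFSF14 and LTB, all near 0, overlapped as well. After RC48 the order was TNFSF10 at 106.1 ± 45.8 TPM, LTB at 31.7 ± 5.6 TPM, TNFSF13 at 15.5 ± 0.77 TPM, TNFSF15 at 6.17 ± 1.67 TPM, TNFSF9 at 3.79 ± 0.36 TPM and TNF at 3.29 ± 0.64 TPM. TNFSF9 and TNF were the neighbours whose ranges overlapped. TNFSF10 made up 87.6% to 89.0% of the summed TPM of the listed ligands in Control, and 53.1% to 70.3% after RC48. LTB made up 14.5% to 22.9% after RC48, with its largest share in replicate 1, the library with the lowest TNFSF10 (60.8 TPM). LTB itself was lowest of the RC48 libraries there, at 26.3 TPM. These shares carry no GC correction, and replicate 1 had the strongest GC trend.

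**Figure D4:**
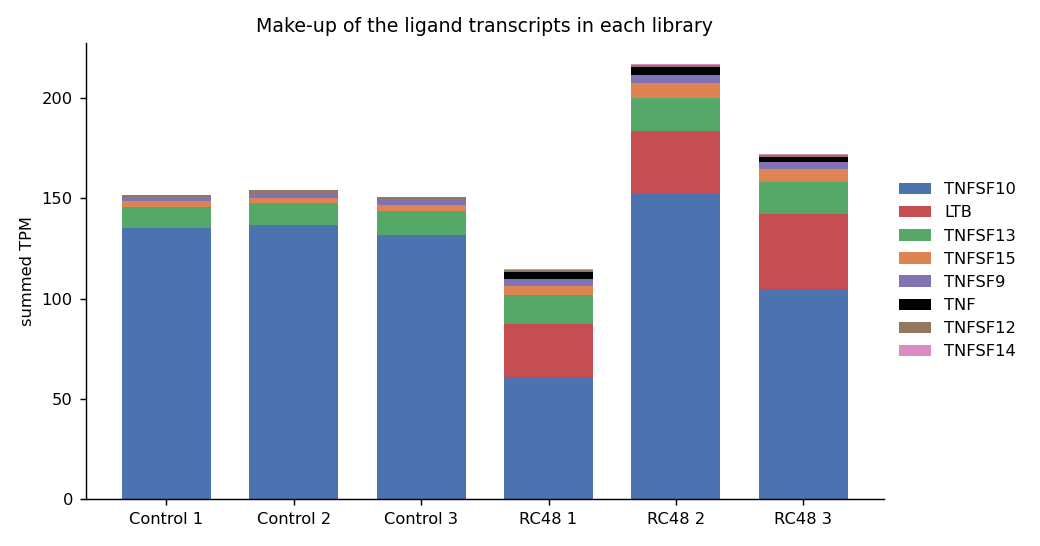
Summed TPM of the 8 listed ligands in each library, stacked by gene. TNFSF10 fills most of each Control bar, LTB appears only in the RC48 bars, and the bar of RC48 replicate 1 is the shortest at 114.5 TPM against 216.9 TPM in replicate 2. For replicate 2, TPM was derived from counts.

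Among the 9 further ligands of the superfamily, 7 were listed, 2 had enough reads for the test and neither was called. CD70, the ligand of CD27, was at 0.463, 0.695 and 0.530 CPM in Control and at 3.34, 0.685 and 0.946 CPM after RC48, so that its difference rested on RC48 replicate 1. The ectodysplasin gene EDA was at 3.36 to 3.82 CPM in Control and 3.10 to 4.01 CPM after RC48. TNFSF4 (OX40L) went from 2, 4 and 4 counts to 8, 8 and 10, with a scaled ratio of 2.58 and an exact 95% interval of 1.20 to 5.995. That interval covers counting error only, and TNFSF4 was too low to enter the test. TNFSF18 (GITRL) had 11 counts over the RC48 group against 1 in Control. FASLG, TNFSF11 and TNFSF13B were at most at 5 counts in a library, and CD40LG and TNFSF8 were not listed.

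Of the receptors of LTB, TNF and TNFSF15, LTBR, TNFRSF1A and TNFRSF25 were already present in Control. LTA, which forms the heterotrimer with LTB, was not listed. LTBR, the receptor of the lymphotoxin heterotrimer and of TNFSF14, was at 139 to 142 TPM in Control and at 143 to 151 TPM after RC48 (log2 fold change 0.14 ± 0.13, and -0.15 with the GC correction). TNFRSF1A, the main TNF receptor, was at 155 to 162 TPM in Control and 147 to 151 TPM after RC48. In CPM, TNFRSF1A was at 161 to 172 in Control and 154 to 185 after RC48 (log2 fold change 0.0059 ± 0.12). The groups of LTBR and of TNFRSF1A overlapped in CPM though not in TPM. TNFRSF1B, the second TNF receptor, had at most 12 counts in a library. The TNFSF15 receptor TNFRSF25 was at 7.75, 7.07 and 9.07 CPM in Control and at 21.6, 7.31 and 9.63 CPM after RC48, where replicate 1 alone was high. Its soluble decoy TNFRSF6B stayed between 1.71 and 3.64 CPM in all libraries. The TNFSF10 death receptor TNFRSF10B was at 91.2 to 109 TPM in Control and 107 to 126 TPM after RC48, below TNFRSF1A and LTBR, and was not called. In CPM, TNFRSF10B was at 195 to 214 in Control and 249 to 252 after RC48 (log2 fold change 0.29 ± 0.10, and 0.13 with the GC correction). The TNFSF9 receptor TNFRSF9 had at most 9 counts in a library, and the TNFSF13 receptors TNFRSF13B and TNFRSF17 were not listed.

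Of 10 tested receptors, 1 was called, beside 2.21% of all tested genes. TNFRSF12A, the receptor of the scarce ligand TNFSF12, rose from 54.4, 54.6 and 50.8 CPM to 129, 81.7 and 101 CPM. Its log2 fold change was 0.97 ± 0.18 (adjusted p = 0.0374, edgeR quasi-likelihood test, Benjamini-Hochberg method), and 0.63 with the GC correction. The call was lost without any 1 of the Control libraries or without RC48 replicate 3. TNFRSF14 (HVEM), the other TNFSF14 receptor, had a log2 fold change of 0.87 ± 0.20 that was not called, and one of 0.53 with the GC correction that was.

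Of 11 genes that cut the ligands from the membrane or control the stability of their messages, 1 was called, beside 2.21% of all tested genes. ZC3H12A, a ribonuclease that degrades cytokine messages, rose by a log2 fold change of 2.19 ± 0.13 (adjusted p = 0.000336 in the edgeR quasi-likelihood test). The TNF-shedding protease ADAM17 stood at 47.3 to 61.8 CPM in Control and 46.8 to 49.6 CPM after RC48. The protease FURIN, which processes TNFSF13 and TNFSF12, stood at 258 to 265 CPM against 297 to 494 CPM and was not called.

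Of 34 genes that signal downstream of the receptors, 7 rose and none fell, where 1.98% of all tested genes were called higher. As with the ligands, this list and that of the targets were chosen with results of the contrast known, so nothing is read from their counts. TNFAIP3 (A20), an inhibitor of TNF signalling, rose by a log2 fold change of 3.54 ± 0.15 and BIRC3 (cIAP2), which TNF receptors recruit, by 3.01 ± 0.24. The alternative NF-κB genes RELB and NFKB2, which act downstream of the lymphotoxin β receptor, rose by 2.96 ± 0.22 and 2.02 ± 0.19 on the log2 scale. The inhibitors NFKBIA, NFKBIE and TNIP1 were the others, at 1.88, 1.55 and 1.14 on the log2 scale. The adjusted p of these 7 ran from 7.66e-05 to 0.0106 in the edgeR quasi-likelihood test, and that of NFKBIE was lost in 4 of the 6 fits that left out 1 library. Of 17 tested target genes of TNF and lymphotoxin signalling, 12 rose and none fell, beside the same 1.98% of all tested genes, and 3 of the 25 on the list were not listed. They included the chemokines CXCL1, with a log2 fold change of 6.68 ± 0.21, and CXCL8, with 6.09 ± 0.39, as well as CCL20, CXCL3 and CXCL10 at 5.13, 5.03 and 4.71. CCL20, CXCL3, CXCL10 and the called target CCL2 had at most 3 counts in a Control library and passed the filter only through their RC48 counts. The size of their fold changes is therefore uncertain. With a minimum of 10 counts in every library, 12 targets were tested and 7 called. Most of the genes on these lists are also switched on by other inputs to NF-κB.

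**Figure D5:**
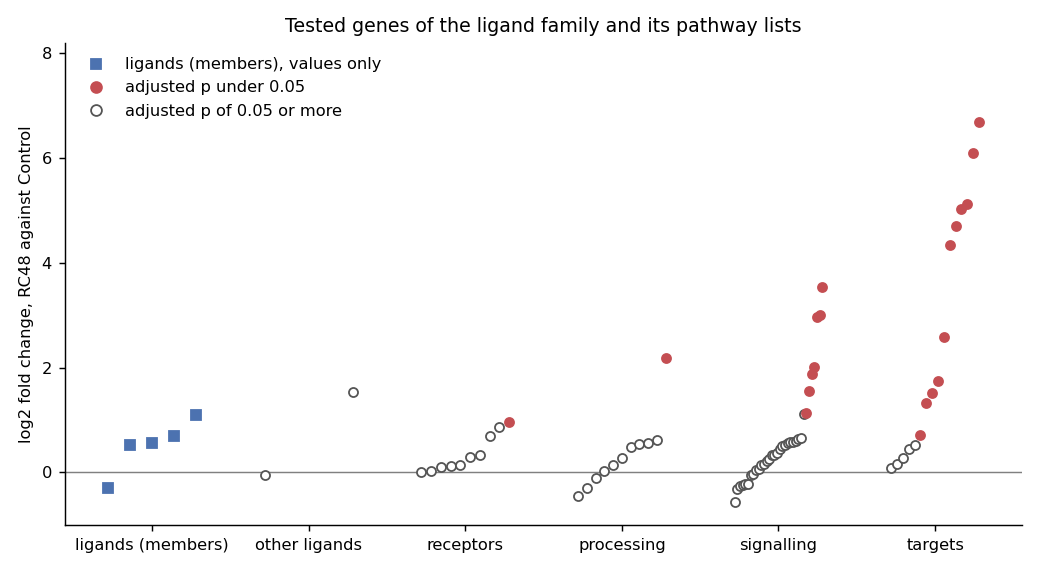
Log2 fold changes, RC48 against Control, of tested genes in each list, sorted within a list. Blue squares are the ligands described here, filled circles passed the edgeR test and open circles did not. TNF, LTB and CCL2 are left out since they had at most 3 counts over the Control group, and every filled circle lies above 0.

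The genes next to the ligands were compared with them, taking the 3 nearest listed genes on each side. LTB (chr6:31580558-31582425, minus strand) lies 2222 bp from the end of TNF (chr6:31575565-31578336, plus strand), and the nearest listed gene on the far side of LTA, NFKBIL1, was at 352, 361 and 293 counts in Control and 422, 389 and 430 after RC48. On the other side of LTB, NCR3 and AIF1 had at most 1 count in a library. Over all ligands, 23 of the 32 neighbours were tested and 1 was called, beside 2.21% of all tested genes. The median log2 fold change of the tested neighbours was 0.15. The called neighbour was the complement gene C3, which lies 7116 bp from TNFSF14 and went from 26, 19 and 21 counts to 539, 352 and 449 (log2 fold change 4.33 ± 0.25, adjusted p = 0.000308 in the edgeR quasi-likelihood test). TNFSF13 (chr17:7558282-7561601, plus strand) begins 401 bp beyond the end of TNFSF12 (chr17:7549058-7557881, plus strand). TNFSF10 (chr3:172505508-172523430, minus strand) and TNFSF15 (chr9:114784635-114806039, minus strand) had no called neighbour, nor had TNFSF13 and TNFSF12.

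The genes whose pattern over the 6 libraries was most like that of a ligand were taken by Pearson's r of log2 CPM. Since the groups stand apart, r mostly restates the difference between them. For LTB they included the interferon-induced MX1 and TNFAIP3, at r of 0.999 and 0.998. For TNF they were SYNPO2, the chemokine gene CCL20 and GABBR2, at 0.998, 0.997 and 0.996. For TNFSF15, whose level was lowest in RC48 replicate 1, they were PLK2, the interferon-induced IFIT1 and DRAM1, at 0.9996, 0.998 and 0.997. An r of 0.95 was reached by 294 genes with TNF, by 290 with LTB and by 142 with TNFSF15.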

How the data were processed

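RNA of 6 SW780 libraries was analysed by the authors with SOAPnuke, Bowtie2 and RSEM, and the submitters' processing notes name hg38. Versions and the gene annotation are not given in the sources used here. The deposited values are RSEM's estimated counts, not normalized, and TPM, which the authors scaled for length and depth. RC48 replicate 2 had no TPM here, so its values were derived from counts and the relative gene lengths that the other libraries imply. Applied to RC48 replicates 3 and 1, this differed from the authors' TPM by a median of 0.00858 and 0.175 on the log2 scale.

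Estimated counts were rounded, filtered with filterByExpr and scaled by TMM, and RC48 was compared with Control by the quasi-likelihood test of edgeR 4.0.16 (R 4.3.3), with Benjamini-Hochberg adjustment over 13055 genes and a threshold of 0.05. Of these, 258 were called higher and 30 lower, 2499 had an unadjusted p under 0.05. The script was tested on simulated data. No p-value is given for the ligands. The ligands and the receptor, processing, signalling, target and marker lists were chosen with earlier results of these data known. The rule for naming genes took all ligands, up to 8 called genes per list with the largest change, receptors of called ligands, the 3 most similar genes and the 3 neighbours on each side. A gene that this rule named is not reported here. Alternatives used DESeq2 1.42.0, limma 3.58.1 on log2(TPM+1) and log2(TPM+0.1), voom, other scalings and filters, a loess correction for GC (span 0.3), the replicate block and leaving out each library. Coordinates, gene names and start sites are RefSeq's for GRCh38.p14, and GC content came from GENCODE v29 transcripts for 99.4% of genes. Ratios have exact 95% intervals and the floor is 3 counts, for counting error only.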

Additional observations from a re-analysis of the deposited data

How the results depend on the processing

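Over 17 alternatives, LTB and TNF were called higher in each of the 16 that tested them and were filtered out by a minimum of 10 counts in every library. With at most 1 count in a Control library, LTB and TNF passed the filter only through their RC48 counts. Their rise was thus fixed on entry, and nothing is read from these calls. TNFSF15 kept its direction in 17 and was called in 10. It missed the threshold with library sizes alone (1.05 on the log2 scale), with limma on log2(TPM+1) (0.83) and log2(TPM+0.1) (1.00), and without any 1 Control library or RC48 replicate 3. The number of ligands called, 3, became 1 with at least 10 counts in every library, which left 4 to be tested, and 7 with voom quality weights, which called 61.4% of all genes. It was 2 to 4 with 1 library left out. TNFSF13 was called in 4 alternatives and TNFSF9, TNFSF10 and TNFSF12 in 1 each.

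Other counts changed as follows. Receptors called, 1, became 2 with DESeq2, 6 with voom, 2 with the GC correction, 2 with the GC correction and replicate block, and 0 to 3 with 1 library left out. Processing genes called, 1, became 2 with DESeq2, 8 with voom, 2 with the GC correction and 1 to 6 with 1 library left out. Signalling genes called, 7, became 11 with DESeq2, 29 with voom, 12 with the GC correction and 6 to 20 with 1 library left out. Target genes called, 12, became 7 with at least 10 counts in every library and were 8 to 14 with 1 library left out. Over all genes, 288 calls became 744 with DESeq2, 926 with the GC correction, 674 with the GC correction and replicate block, 8018 with voom, and 68 to 3726 with 1 library left out, the highest without RC48 replicate 2. The causes were not tested.

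Of the genes recomputed under every alternative, 4 uncalled ones changed direction. TNFRSF1A (0.0059 on the log2 scale) was at -0.0058 with DESeq2, -0.0058 with RLE, -0.060 with library sizes alone, -0.0081 with no filter, -0.0058 with the minimum of 10 counts, -0.079 and -0.080 with limma, -0.036 with voom, -0.21 with the GC correction with or without the block, and -0.073 to 0.062 with 1 library left out. LTBR was at -0.15 with the GC correction, with or without the block. TNFRSF6B (0.11) was at -0.067 and -0.083 with limma, -0.24 with the GC correction, -0.25 with the block added, and -0.23 to 0.33 with 1 library left out. ADAM17 (-0.10), which was compared only with the GC correction, was then at 0.17. EDA (-0.05) was at 0.13 with voom and -0.19 to 0.018 with 1 library left out.

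With the replicate block, 3 ligands, 1 receptor and 331 genes in all were called. Same-numbered libraries deviated with correlations of 0.0020, -0.13 and 0.0048. With 3 libraries per group, such values cannot decide whether the numbers pair them. Depth limited LTB, TNF and TNFSF14 in Control, where at most 1 read was counted in a library, and TNFSF12, with at most 16.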
